A study of Mus musculus with 12 samples.

Results

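H3K4me1 regions listed in both KDM6A-KO lines and in neither KDM6A-WT line were followed across every other region list of the series. The 4 H3K4me1 lists, from a female KO, a female WT, a male KO and a male WT line, were merged by joining regions that touched or overlapped, which gave 77333 merged regions. Of these, 1674 were overlapped by both KO lists and by neither WT list, and they are called KO-only regions here. That is 2.16% of the merged regions and 5.49 Mb in all. Taken singly, 8.92% of the merged regions were listed in KO and not in WT in the female lines and 14.8% in the male lines. The regions were chosen by their presence in the H3K4me1 lists, so length, reads and absence from WT are given as a description. The other marks and factors were not used to choose them, but come from the female lines whose H3K4me1 lists entered the rule.

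The lines came from pancreatic tumours of mice. They were kept in F12/DMEM supplied with EGF, and none was treated. Genotype was given as KDM6A-KO or KDM6A-WT. The cell type field of all samples, WT included, calls the tumour of origin K6A null, so KO and WT follow the genotype field. Chromatin immunoprecipitation was done for H3K4me1 in all 4 lines, for H3K4me3, H3K27ac and H3K27me3 in the female WT line, and for KDM6A and MLL4 (antibody field KMT2D) in the female KO and WT lines. Each group was 1 library, so no difference between lines has a replicate check and no test between libraries was possible. The labels do not say how many clones or animals a line came from, and tumour identity was not checked against marker genes, because no gene could be assigned to a position.

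H3K4me1 is placed on nucleosomes at enhancers and along the flanks of promoters, in mammals largely by the methyltransferases MLL3 and MLL4. KDM6A, also called UTX, sits in the same complexes and removes methyl groups from H3K27me3, the mark of Polycomb repression. H3K4me3 marks promoters, with H3K4me1 usually lower at their centre than on their shoulders, and H3K27ac marks active promoters and enhancers. A promoter with both H3K4me3 and H3K27me3 is called bivalent.

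The KO-only regions were short and lay mostly in the lower part of both KO lists. Their length ran from 800 to 16000 bp with a median of 2800 bp and quartiles of 2200 and 4000 bp. Merged regions of all 4 lists had a median of 7200 bp, and those of both WT lists and neither KO list 3400 bp. Only 15 of the 1674 were longer than 10 kb. Reads per region were also modest. In the female KO list the KO-only regions held 19 to 889 reads with a median of 70, against a median of 112 over the whole list. In the male KO list they held 27 to 695 reads with a median of 87, against 125 over the whole list. Ranked by reads within its own list, the median KO-only region stood at percentile 27.8 in female KO and 33.3 in male KO. Where several regions of a list fell on a KO-only region, their reads were summed. The percentile is then that of the listed region with most reads. Both percentiles were above 50 for 175 regions, or 10.5% [9.03 to 12.0], and both were above 90 for 1 region. Numbers in brackets are exact 95% binomial intervals over regions. They cover counting error alone, and regions of 1 library are not replicates.

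**Figure D1:**
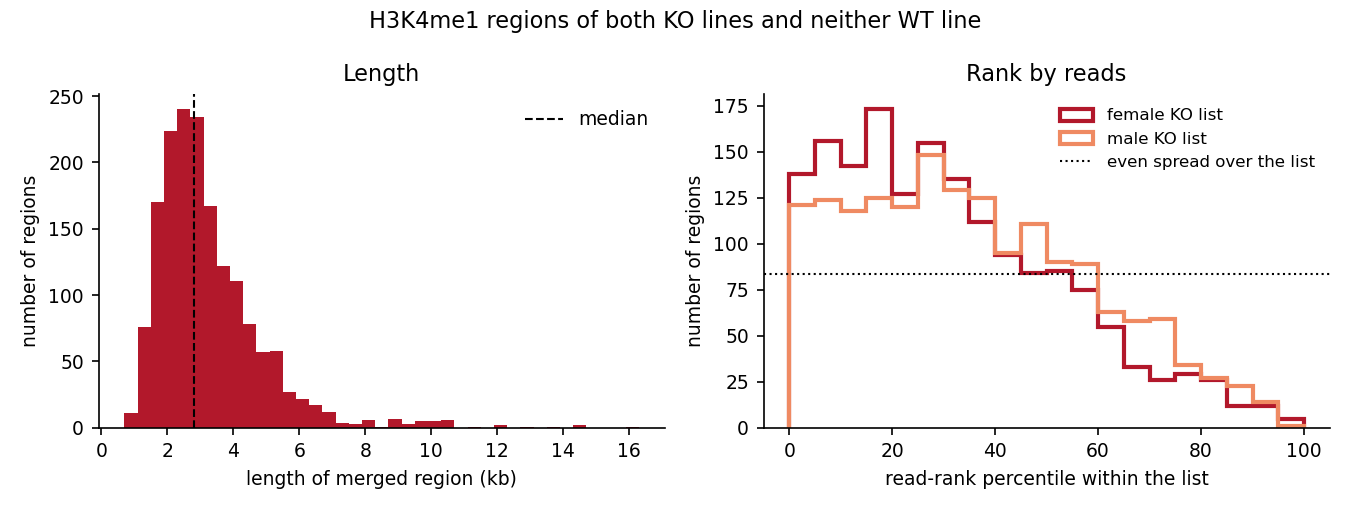
Left, number of the 1674 KO-only regions by length in kb, with the median of 2800 bp as a dashed line. Right, number of regions by their read-rank percentile in the female and in the male KO list; the dotted line is an even spread, and both curves lie above it at low percentiles and below it at high ones.

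Density gave a like picture. Reads per kb had a median of 31.0 in female KO and 39.7 in male KO at the KO-only regions, against 38.4 and 52.2 at the regions of all 4 lists. The values belong to lists of different depth and are compared within a list only. Across the 1674 regions, log2 reads per kb of the 2 KO lists had a Pearson r of 0.28, and log2 reads an r of 0.43. Both are descriptions, since the points share region length and genomic background.

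The female and male KO lines agreed on the place of these regions more than on their extent. A single region of each KO list made up 1606 of them, or 95.9% [94.9 to 96.8]. The stretch covered by both lists was a median of 63.6% of the merged length, and at least 50% of it in 1270 regions. Female KO had the longer region in 816 cases, male KO in 728, and the lengths were equal in 130. In 2 cases the KO regions touched without overlapping. Neither line was therefore the main source of the length.

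How far the regions lay from H3K4me1 of WT shows where the rule cuts. The nearest WT region of either sex was at a median distance of 8600 bp, with a range from 200 to 1141600 bp. It lay within 1 kb for 258 regions, 15.4% [13.7 to 17.2], within 5 kb for 657, 39.2% [36.9 to 41.6], and beyond 50 kb for 232, 13.9% [12.2 to 15.6]. WT H3K4me1 stood within 5 kb on both sides for 104 regions, 6.21% [5.10 to 7.48]. Close to the edge of the rule, 146 KO-only regions with a median length of 2600 bp had a WT region within 600 bp. Just outside it, 15 merged regions of both KO lists, with a median length of 3000 bp, were excluded for WT coverage of at most 600 bp. Among all 22156 merged regions of both KO lists and at least 1 WT list, WT covered a median of 88.2% of the length and under 20% in 78 cases. A merged region takes in the whole of any WT region that touches it, so these counts do not measure the overlap of KO with WT regions. How many exclusions were borderline was not determined. A region missing from a WT list may still hold reads below the threshold of the peak caller, and the lists give no WT count there.

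The number of KO-only regions depended on the length of the lists. The lists held 35041 regions for female KO, 49780 for male KO, 56076 for female WT and 64247 for male WT, so absence from WT was set against the longer lists. With all 4 cut to 35041 regions by reads, 3860 regions were KO-only and 4605 WT-only, that is listed in both WT lines and neither KO line, where the whole lists gave 1674 and 9275. Of those 3860, 2925 overlapped WT H3K4me1 of the whole lists, 75.8% [74.4 to 77.1], and 930 of the 1674 overlapped one of the 3860. In the other direction, keeping the upper 50% of each KO list by reads left 176.

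The leading KO-only regions, by the lower of their percentiles in the KO lists, were large and lay 3 to 72.6 kb from WT H3K4me1. First came chromosome 5, 87099201 to 87109200, 10000 bp long, with 424 reads in female KO and 539 in male KO; H3K27ac of female WT was listed there with 122 reads and H3K4me3 was not. Second was chromosome 3, 91833801 to 91841800, with 366 and 572 reads. It lay farthest of the 10 from WT H3K4me1, and carried an H3K27ac region of 575 reads and a faint H3K4me3 region of 33 reads in the WT line. This is the mark set of an active element without listed H3K4me1 in WT.

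Chromosome 5 held 4 of the leading 10. The others on it were 143718801 to 143730800, with 671 female and 422 male KO reads, 89830801 to 89845400, with 388 and 656, and 23390001 to 23403000, with 600 and 401. They differed in the marks of WT. The region at 143718801 combined H3K4me3 (97 reads) with H3K27me3 (96 reads) and an MLL4 region of the KO line (34 reads). At 89830801 H3K27ac alone was listed, with 171 reads, and at 23390001 H3K4me3 with 85 and H3K27ac with 216.

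The remaining leading regions covered several mark states. Chromosome X, 70675201 to 70685600, had 341 and 440 KO reads and the marks of an active promoter, H3K4me3 with 690 reads and H3K27ac with 286. Chromosome 9, 118917001 to 118922400, was the densest of the 10 in both lists, at 65.7 reads per kb in female KO and 109 in male KO, and carried H3K4me3 (112 reads) and H3K27ac (290 reads). Chromosome 14, 63389801 to 63398600, with 346 and 390 reads, had H3K27ac alone. Chromosome 3, 96237801 to 96248000, with 302 and 545 reads, was covered by H3K27me3 over its whole length (477 reads) and also held H3K4me3 (283 reads). Chromosome 2, 61176201 to 61185600, with 275 and 367 reads, had none of the 3 marks. No KDM6A region of either line and no MLL4 region of WT overlapped any of these 10.

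Of the 3 longest regions, 1 was that of chromosome 5 at 89830801 and the other two were uneven between the lines. Chromosome 9, 28862401 to 28878400, spanned 16000 bp and held 809 reads in female KO but 259 in male KO, with no mark of WT listed. The listed region with most reads stood at percentile 97.3 in female KO and 60.6 in male KO. Chromosome 6, 30509001 to 30523400, held 889 and 245 reads, with H3K4me3 (125 reads) and H3K27ac (291 reads). There the listed region with most reads stood at percentiles 97.7 and 62.8. In both of these, the male KO list covered a smaller part of the interval.

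H3K4me3 of the WT line was found on about as many KO-only regions as it was missing from, and far more often than on the WT counterpart. It overlapped 804 of the 1674, or 48.0% [45.6 to 50.5], where the background over all merged regions was 28.6%. Of the 9275 merged regions listed in both WT lines and neither KO line (12.0% of the merged regions), H3K4me3 overlapped 337, or 3.63% [3.26 to 4.03]. The intervals are far apart, and the WT-only regions were the longer ones. H3K27ac followed, on 752 KO-only regions, 44.9% [42.5 to 47.3], against a background of 33.6% and 10.2% [9.58 to 10.8] of the WT-only regions. H3K27me3 did not separate them, at 18.3% [16.5 to 20.3] of the KO-only and 17.7% [16.9 to 18.5] of the WT-only regions, with a background of 16.5%. H3K4me3 and H3K27ac were therefore present in the female WT line at many places where its H3K4me1 list was empty. With lists of equal size H3K4me3 overlapped 70.2% of the KO-only and 6.41% of the WT-only regions, and H3K27ac 71.5% and 19.8%. The backgrounds of that setting were 39.1% and 47.2%. Of its KO-only regions, 75.8% overlapped WT H3K4me1 of the whole lists, so most were not places without listed WT H3K4me1. The contrast was smaller with the upper 50% of each KO list by reads, where H3K4me3 overlapped 59.1% of the 176 KO-only and 16.2% [15.6 to 16.8] of 16494 WT-only regions; that WT-only class takes in, by construction, WT regions whose KO counterpart was dropped.

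Other classes held by 2 of the 4 lists lay between these. H3K4me3 overlapped 33.0% [30.5 to 35.6] of the regions of male KO and female WT, 27.9% [22.9 to 33.4] of those of both female lines, 16.0% [14.8 to 17.2] of those of both male lines, and 7.96% [6.27 to 9.93] of those of female KO and male WT. The KO-only class had the highest share of the 6 classes of 2 lists, for H3K27ac as well. It stayed below the regions of all 4 lists, with 76.3% [75.6 to 76.9] for H3K4me3 and 87.1% [86.6 to 87.5] for H3K27ac. Regions of both KO lists and female WT, missing from male WT alone, had H3K4me3 in 84.7% [82.6 to 86.7] of cases. Those missing from female WT alone had it in 43.6% [41.6 to 45.6]. Among regions of 1 KO list and no other, the share was 7.64% [6.50 to 8.90] for female KO and 17.7% [16.9 to 18.6] for male KO, below the share at regions found by both.

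**Figure D2:**
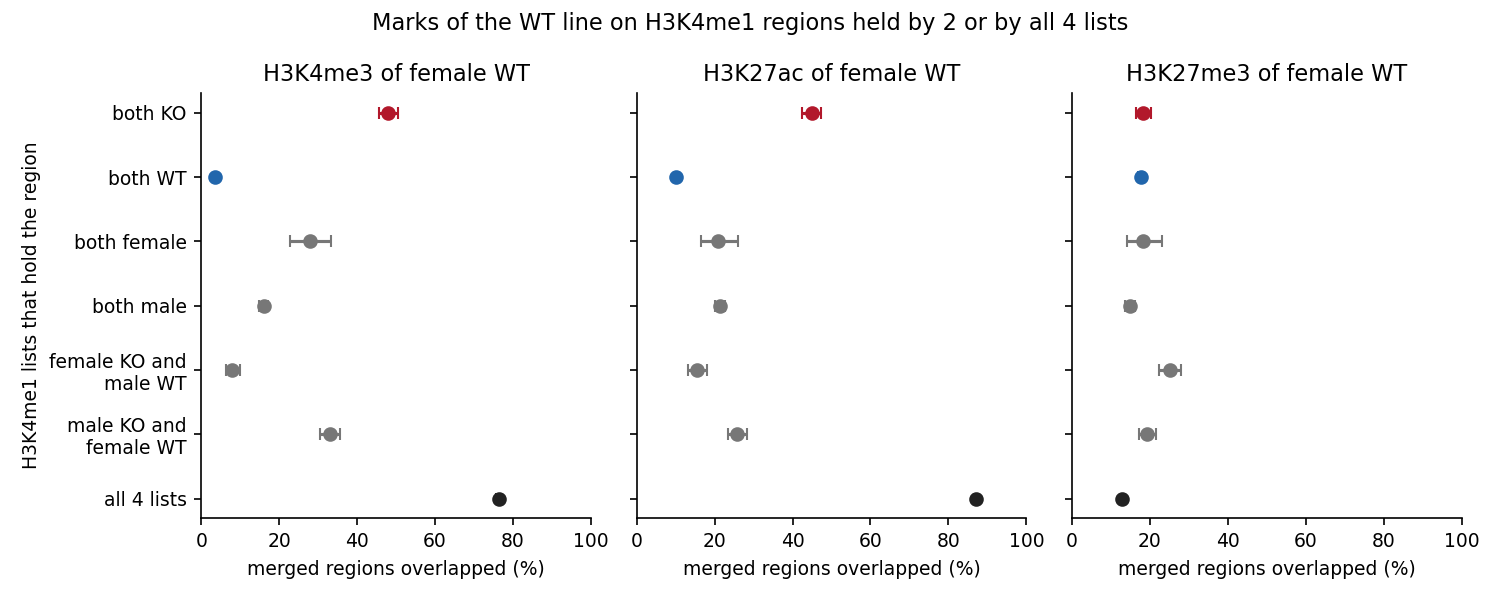
Percent of merged H3K4me1 regions overlapped by H3K4me3, H3K27ac and H3K27me3 of the female WT line (x axes), for the 6 classes held by exactly 2 lists and the class held by all 4 (y axis); bars are exact 95% intervals. Regions of both KO lists reach 48.0% for H3K4me3 and those of both WT lists 3.63%, while the H3K27me3 shares run from 12.9% to 25.1%.

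The contrast in H3K4me3 was present in each length class. Among regions of up to 2400 bp, 48.6% [44.5 to 52.7] of the KO-only and 3.67% [2.92 to 4.54] of the WT-only regions were overlapped. Between that and 3400 bp the values were 45.6% and 2.74%, and above it 49.8% and 4.09%. The regions of all 4 lists in the shortest class gave 76.8% [72.8 to 80.4]. H3K27ac was more frequent on longer KO-only regions, from 37.5% [33.6 to 41.6] to 56.0% [51.7 to 60.2], and H3K27me3 less frequent, from 22.2% [18.9 to 25.8] to 14.3% [11.5 to 17.5].

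Regions with more KO reads carried the active marks more often. Sorted by the lower of the 2 percentiles into classes of 566, 551 and 557 regions, H3K4me3 was present in 39.4%, 47.9% and 56.9%, and H3K27ac in 27.7%, 45.2% and 62.1%. H3K27me3 ran the other way, at 24.9%, 16.5% and 13.5%. Median length also increased along the classes, from 2200 to 4000 bp. The H3K4me3 share differed little between the length classes above, while H3K27ac and H3K27me3 moved with length as well as with read rank.

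The KO-only regions were sorted by the combination of the 3 marks of the female WT line. The unmarked group was the largest, with 593 regions or 35.4% [33.1 to 37.8] that had none of the 3 marks, followed by 507 with H3K4me3 and H3K27ac, the pattern of active promoters, at 30.3% [28.1 to 32.6]. H3K27ac without H3K4me3 or H3K27me3 was seen in 160, or 9.56% [8.19 to 11.1]. By the rule, the WT line had no listed H3K4me1 at these either. In the WT-only class, where H3K4me1 of WT was listed as well, H3K27ac alone of the 3 marks was closer in frequency, at 7.05% [6.54 to 7.59]. H3K4me3 with H3K27ac made up 1.76% of that class and unmarked regions 72.7%. The surplus of marked regions among the KO-only ones was thus mostly at H3K4me3.

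Bivalent marking was part of it. H3K4me3 and H3K27me3 were both present, with or without H3K27ac, on 190 KO-only regions, 11.4% [9.87 to 13.0], about the share of the regions of all 4 lists, 10.9% [10.4 to 11.3], and above the 1.06% [0.859 to 1.29] of the WT-only class. The split by H3K27ac differed. H3K4me3 with H3K27me3 and no H3K27ac was found on 113 KO-only regions, 6.75% [5.60 to 8.06], and all 3 marks on 77, 4.60% [3.65 to 5.72]. In the regions of all 4 lists all 3 marks were the more frequent, at 9.15% [8.74 to 9.58]. The combination without H3K27ac was at 0.625% [0.475 to 0.808] in the WT-only class, 1.70% [1.52 to 1.90] in the regions of all 4 lists and 5.41% [4.90 to 5.96] in those of male KO alone. H3K4me3 by itself marked 107 regions, 6.39%, against 1.31% of the regions of all 4 lists. H3K27me3 by itself marked 109, 6.51% [5.38 to 7.80]. That is above the 1.33% [1.17 to 1.51] of the regions of all 4 lists. It is below the 15.7% [14.9 to 16.4] of the WT-only class, the 22.6% [20.7 to 24.5] of female KO alone and the 12.5% [11.7 to 13.3] of male KO alone. Both marks from the 1 line may come from different cells or alleles, which the lists do not separate. They may also lie on separate parts of a region, because each had only to overlap the region and not the other mark. The regions of all 4 lists, with a median of 7200 bp, leave more room for this than the KO-only regions, with 2800 bp.

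**Figure D3:**
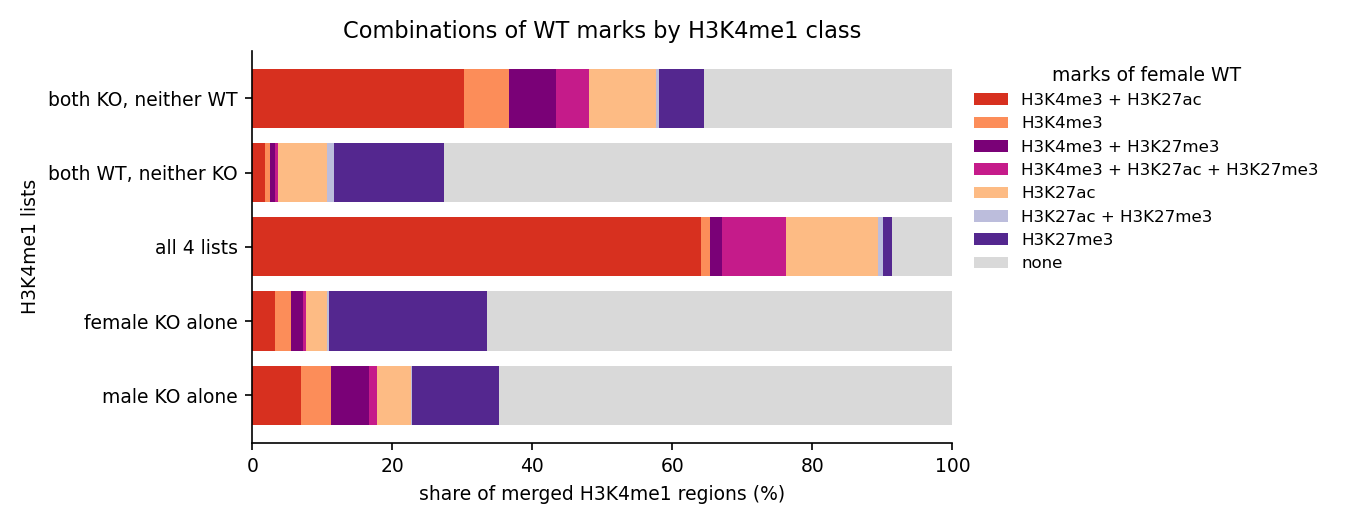
Share of merged H3K4me1 regions (x axis, percent) with each combination of H3K4me3, H3K27ac and H3K27me3 regions of the female WT line, for 5 classes of H3K4me1 (y axis). The KO-only bar has 30.3% with H3K4me3 and H3K27ac and 35.4% with no mark, and the WT-only bar 1.76% and 72.7%.

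The groups differed in size and surroundings. Regions with H3K4me3 and H3K27ac had a median length of 3000 bp, stood at percentiles 34.4 in female KO and 41.6 in male KO, and lay at a median of 3600 bp from WT H3K4me1. Bivalent ones without H3K27ac were shorter and lower ranked, with 2600 bp and percentiles 21.3 and 28.2, and farther from WT H3K4me1, at 15400 bp. The 160 regions with H3K27ac alone had the longest median among groups of more than 100, 3400 bp, and percentiles of 36.4 and 46.8. Those with no mark stood at 25.2 and 29.4.

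The strength of H3K4me3, where present, depended on how it was counted. By reads, the H3K4me3 regions on KO-only regions had a median percentile of 59.3 in their own list, with quartiles of 34.1 and 76.2 and a median of 629 reads. Some of these also met WT H3K4me1 outside the KO-only region. These values are counted per KO-only region. Counted over the H3K4me3 list, the 638 regions that met both KO lists and no WT H3K4me1 had a median percentile of 42.3 and 190 reads. That is a different set, since only 561 H3K4me3 regions without WT H3K4me1 lay on a KO-only region. Per merged region again, the median percentile was 27.4 with 91 reads on the WT-only class, and 72.5 with 1104 reads on regions of all 4 lists. H3K27ac regions ranked at 45.7 on the KO-only, 23.6 on the WT-only and 69.7 on the regions of all 4 lists. For H3K27me3 the medians of the 3 classes were alike, at 75.6, 76.7 and 74.0.

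The KO-only regions with most H3K4me3 reads stood at the 12.2 to 67.4 percentile of the KO lists by H3K4me1 reads. Chromosome 9, 62186401 to 62190600, had 4294 H3K4me3 and 1150 H3K27ac reads in the WT line, with 121 H3K4me1 reads in female KO and 143 in male KO. Chromosome 17, 63233201 to 63234800, had 3980 and 798, with 46 and 65 H3K4me1 reads over 1600 bp. Chromosome 3, 96304401 to 96309400, had 3962 and 694, with 55 and 190. These lay 1.60, 3.60 and 0.800 kb from WT H3K4me1, so at each the WT mark stood nearby without reaching the region.

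H3K4me3 lay inside the KO-only region about as often as it reached past its border. Of the 800 KO-only regions with exactly 1 H3K4me3 region, that region lay wholly inside in 429, or 53.6% [50.1 to 57.1], and its centre was within 500 bp of the other in 357, or 44.6% [41.1 to 48.1]. The median distance between centres was 700 bp, with a median H3K4me3 length of 2600 bp. H3K4me3 regions that reached a KO-only region numbered 789, which is 3.22% of the 24492 H3K4me3 regions. Of these, 228, or 28.9% [25.8 to 32.2], also met WT H3K4me1 outside the KO-only region, on another part of the same H3K4me3 region. Counted from the H3K4me3 list, 2643 regions met no WT H3K4me1 at all. Both KO lists overlapped 638 of these, 24.1% [22.5 to 25.8], male KO alone 1025, 38.8% [36.9 to 40.7], female KO alone 108, 4.09% [3.36 to 4.91], and neither 872, 33.0% [31.2 to 34.8].

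Near WT H3K4me1 the regions with H3K4me3 were the more frequent. Within 1 kb of a WT region lay 24.3% [21.3 to 27.4] of the 804 with H3K4me3 and 7.24% [5.61 to 9.17] of the 870 without. Within 5 kb it was 43.7% [40.2 to 47.2] and 35.2% [32.0 to 38.4], and beyond 50 kb 14.8% and 13.0%. The difference was thus in the first kilobases. Of the 870 without H3K4me3, 132, or 15.2% [12.9 to 17.7], had an H3K4me3 region within 5 kb, and the median distance to one was 19800 bp. Most of these were therefore more than 5 kb from any listed H3K4me3 region.

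**Figure D4:**
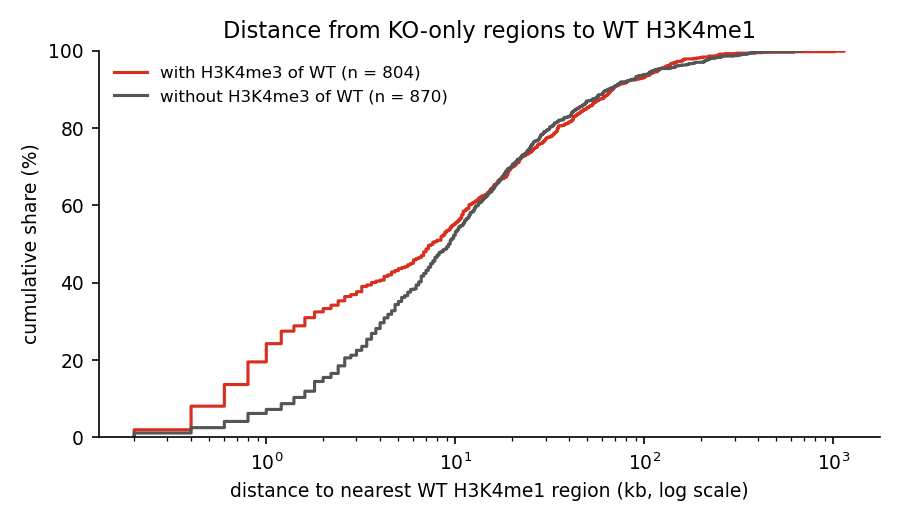
Cumulative share of KO-only regions (y axis, percent) against distance to the nearest WT H3K4me1 region of either sex (x axis, kb, log scale), for the 804 regions with and the 870 without H3K4me3 of the WT line. At 1 kb the curves stand at 24.3% and 7.24%, and they run close together at long distance.

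Where H3K27me3 was present, it covered a median of 100% of the KO-only region. The WT-only class, at 93.3%, and the regions of female KO alone and male KO alone, both at 100%, were alike in this, while the longer regions of all 4 lists had 37.4%. The widest case after chromosome 3, 96237801 to 96248000, was chromosome 5, 140379801 to 140389800, with all of its 10000 bp under H3K27me3 (1650 reads), H3K4me3 of 134 reads, and 85 and 308 H3K4me1 reads in female and male KO. Chromosome 14, 63867001 to 63876000, followed, with 9000 bp under H3K27me3 (1199 reads) and 246 and 49 KO reads, and no other mark. H3K27me3 was analysed here in the female WT line, and its state in the KO lines is not known.

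MLL4 and KDM6A were rarely listed on the KO-only regions. The WT lists of both were the shorter ones, with 2847 KDM6A regions in WT against 5961 in KO and 2130 MLL4 regions in WT against 13152 in KO, so a share in one line is read against that line's background. MLL4, the methyltransferase named KMT2D in the antibody field, overlapped 82 of them in the KO line, 4.90% [3.91 to 6.04], against a background of 8.96% over all merged regions. In the WT line it overlapped 1, or 0.0597% [0.00151 to 0.332], against a background of 1.93%. KDM6A overlapped 31 in the KO line, 1.85% [1.26 to 2.62], with a background of 3.74%, and 4 in the WT line, 0.239% [0.0651 to 0.611], with a background of 2.30%. All 4 shares were below their background, and also with lists of equal size, where the backgrounds were 12.6%, 2.74%, 5.12% and 3.19% and the shares 10.6%, 0.570%, 4.27% and 0.622%. The KO-only regions are shorter than the regions of all 4 lists, and length moves with these shares. Up to 2400 bp, MLL4 of KO overlapped 4.24% of the KO-only regions and 12.1% of those of all 4 lists. Over 3400 bp it was 6.16% and 29.4%. KDM6A of KO gave 1.02% and 3.23% in the shorter class and 3.26% and 11.6% in the longer one. KDM6A of WT went the other way up to 2400 bp, at 0.679% and 0.404%. The part of length in the shares was not tested. Under its genotype label the KO line lacks the target of the KDM6A antibody, yet its KDM6A list is the longer one; what that list holds was not tested.

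Against the WT-only class the direction depended on the line. Both classes were set in part by H3K4me1 of the same female lines, so these shares are not independent of the selection. MLL4 of KO overlapped 2.99% [2.65 to 3.35] of the WT-only regions, less than of the KO-only ones. MLL4 of WT overlapped 1.27% [1.05 to 1.52] and KDM6A of WT 2.07% [1.79 to 2.38] of them, more than of the KO-only ones. KDM6A of KO, at 1.80% [1.54 to 2.09], did not separate the classes by these lists. With H3K4me1 lists of equal size, taken by reads, it did, at 4.27% of the KO-only and 2.21% of the WT-only regions, as did MLL4 of KO, at 10.6% and 4.54%. The KDM6A list of the KO line then moved in the direction of MLL4 of KO, and its part in the MLL4 shares was not tested.

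Chromosomes 1, 6 and 17 weighed on these values. Of the factor regions of the KO line they held 56.2% for KDM6A and 52.5% for MLL4, but 15.7% of the KO-only regions, and 47 of the 82 KO-only regions with MLL4 and 19 of the 31 with KDM6A of KO lay there. Without chromosomes 1, 6, 15, 17 and 19, MLL4 of KO overlapped 34 of 1367 KO-only regions, 2.49% [1.73 to 3.46], against 1.11% [0.874 to 1.39] of the WT-only regions and 6.61% of all merged regions. KDM6A of KO then met 11 regions, 0.805% [0.402 to 1.44], against 0.817% and 2.22%. The order of MLL4 between the classes was the same without these chromosomes. Of the 34 KO-only regions with MLL4 left, 11 lay on chromosome 14.

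Regions with MLL4 in KO mostly carried active marks of WT. Of the 82, H3K4me3 was listed on 52, H3K27ac on 51 and H3K27me3 on 12. Over all KO-only regions the shares of these marks were 48.0%, 44.9% and 18.3%. By mark group, MLL4 of KO met 44 of the 507 regions with H3K4me3 and H3K27ac, 8.68% [6.38 to 11.5], 4 of the 160 with H3K27ac alone, 2.50% [0.685 to 6.28], and 20 of the 593 without a mark, 3.37% [2.07 to 5.16]. KDM6A of KO lay on 11 of the 82. The MLL4 regions had 23 to 155 reads and a median percentile of 54.0 in their own list.

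The KO-only regions with most MLL4 reads adjoined WT H3K4me1. Chromosome 1, 179178401 to 179188400, had 155 MLL4 and 99 KDM6A reads in the KO line, the highest of both, with 264 and 91 H3K4me1 reads in female and male KO and H3K4me3 of 2137 reads. Chromosome 6, 21897601 to 21899600, had 111 and 42, with 60 and 91 H3K4me1 reads and H3K4me3 of 986. Chromosome 1, 72756401 to 72758000, had 109 MLL4 reads, no KDM6A region, 28 and 68 H3K4me1 reads and H3K4me3 of 1786. All 3 lay 400 bp from a WT H3K4me1 region.

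KDM6A of KO led, after the first of these, at chromosome 1, 129995601 to 129999000, with 76 KDM6A and 77 MLL4 reads, and at chromosome 13, 113834001 to 113838200, with 73 and 48. The single KO-only region with MLL4 of WT was chromosome 16, 42876401 to 42880600, with 64 MLL4 reads, H3K4me3 of 1151 and H3K27ac of 264, and no MLL4 region in KO. KDM6A of WT was highest at chromosome 14, 77415801 to 77418200, where 45 reads were listed. Chromosome 2, 22720201 to 22721600, had 42 and chromosome 12, 32337201 to 32339200, had 35. No KO-only region had KDM6A in both lines or MLL4 in both lines. With KDM6A of WT on 4 KO-only regions and MLL4 of WT on 1, this cannot show that the lines exclude each other. KDM6A of KO lay on 1.85% and MLL4 of KO on 4.90% of all KO-only regions.

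The KO-only regions were unevenly spread over the chromosomes. Chromosome 5 held 202 and chromosome 14 held 138, which is 4.44% [3.86 to 5.08] and 4.74% [4 to 5.58] of the merged regions there. Together they gave 4.56% [4.10 to 5.06], against 1.91% [1.81 to 2.01] on all other chromosomes. Chromosomes X, at 3.47% [2.69 to 4.40], and 17, at 3.39% [2.75 to 4.12], came next. Lowest were chromosomes 15, with 27 regions and 0.825% [0.544 to 1.20], and 19, with 17 and 0.868% [0.506 to 1.39].

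The number of listed regions differed by chromosome too, without following the KO-only share throughout. On chromosome 5 the number of H3K4me1 regions in KO divided by that in WT was 0.810 in the female and 0.876 in the male lines. On chromosome 14 it was 0.634 and 1.17, and on chromosome 15 0.498 and 0.830. Chromosome 11, with the second highest female ratio, 0.751, and a male ratio of 0.722, had a KO-only share of 1.84%, below the 2.16% of all chromosomes. Regions of female KO alone made up 7.22% of the merged regions of chromosome 5, the highest of any chromosome, and those of male KO alone 15.5% on chromosome 14, where X had 19.5% and chromosome 3 17.2%. The part of these list sizes in the number of KO-only regions was not tested.

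The mark content was less uneven than the number. H3K4me3 was on 46.8% [41.4 to 52.2] of the KO-only regions of chromosomes 5 and 14 and on 48.4% [45.6 to 51.1] elsewhere. Chromosome X had the highest share, 44 of 65 or 67.7% [54.9 to 78.8], against 47.2% [44.8 to 49.7] on the autosomes. Chromosome 15, with 6 of 27, had the lowest share, 22.2% [8.62 to 42.3]. The H3K4me3 share of all merged regions on these chromosomes was not determined. The values are therefore not shown to be particular to the KO-only regions.

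**Figure D5:**
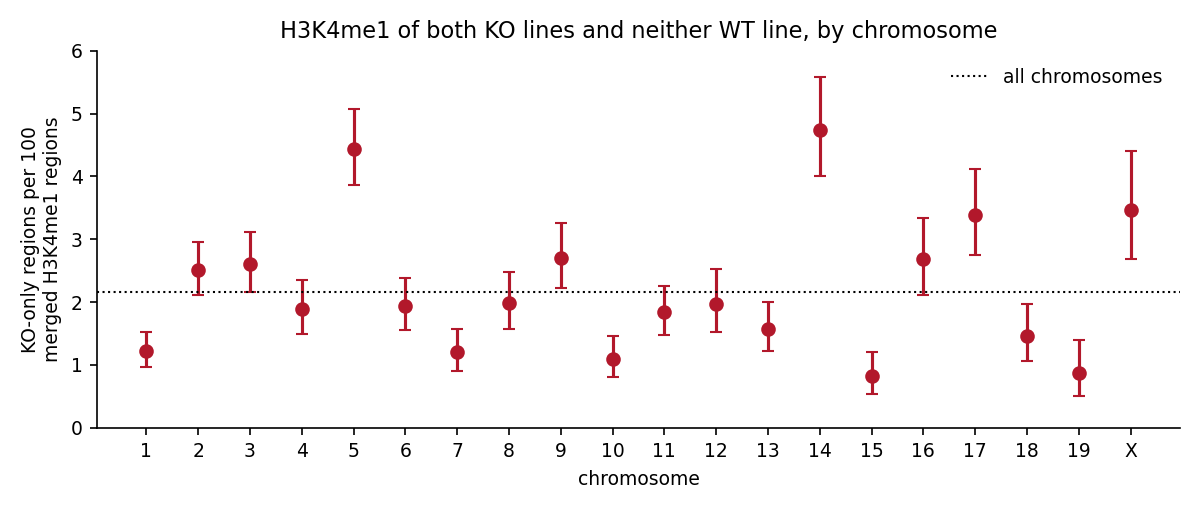
KO-only regions per 100 merged H3K4me1 regions (y axis) on each chromosome (x axis), with exact 95% intervals; the dotted line is the value over all chromosomes, 2.16. Chromosomes 5 (4.44) and 14 (4.74) lie highest and 15 (0.825) and 19 (0.868) lowest.

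Some KO-only regions lay near each other. Joined where less than or equal to 50 kb apart, 460 of the 1674, or 27.5% [25.4 to 29.7], fell into a run of 2 or more, and 1214 stood alone. Classes of similar number gave values on both sides of this, 39.6% [37.4 to 41.8] for the 1964 regions of female KO alone, 26.2% [23.7 to 28.7] for the 1230 of both KO lists and female WT, and 19.1% [17 to 21.3] for the 1339 of male KO and female WT. The fullest run held 8 regions over 194 kb at chromosome 11, 18720001 to 18914400, with 65 to 440 reads in female KO and 44 to 133 in male KO. H3K4me3 lay on 2 of them. Next was a run of 7 over 133 kb at chromosome 4, 24648201 to 24781000, with 66 to 442 and 58 to 300 reads, H3K27ac on 5 and H3K4me3 on 3. No WT H3K4me1 region of either sex fell inside it. A run of 4 at chromosome 14, 103824801 to 103856400, likewise held no WT H3K4me1, and none of its regions carried any of the 3 marks. In such runs several regions of a neighbourhood were listed in both KO lines.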

How the data were processed

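Chromatin immunoprecipitation libraries came from mouse pancreatic tumour lines. The submitters' processing notes name the build mm9 and the tools SICER 1 and Bowtie 1.1.2 and do not say what each was used for. Every deposited list has 4 columns, a position in 3 of them and a number, taken as the count of reads in that region of that library because no header or label names it. Control library, thresholds and library depth are not given in the sources used here. Reads in listed regions ran from 108165 (MLL4 of WT) to 17526099 (H3K4me3). Of 12 libraries, 11 had a region list and were used; for the library titled input no list was used here.

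Positions are printed as a genome browser shows them, in mm9, with the deposited starts raised by 1 and likewise the ends. An overlap was at least 1 bp. The reference at hand is of GRCm38, so no gene was assigned and no sequence printed. The KO-only regions, the classes compared and the rules for named regions were chosen with earlier results of these data known. Named regions were the 10 with the highest lower percentile, and up to 3 each by length, H3K4me3 reads, H3K27me3 bp, and KDM6A or MLL4 reads. Shares have exact Clopper-Pearson intervals at 95%, and no p-value was computed. Python 3.11.15 was used, together with scipy 1.17.1, numpy 2.4.6, pandas 2.3.3 and, for figures, matplotlib 3.10.9. Counts were checked against bedtools 2.31.1, and the steps were tested on simulated data.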

Additional observations from a re-analysis of the deposited data

Results flagged for a closer look

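On chromosome 14 the number of H3K4me1 regions went in opposite directions in the 2 pairs of lines. The female KO list held 0.634 times the regions of female WT, and the male KO list 1.17 times those of male WT. The difference was not tested, since each line was 1 library. Chromosome 14 also held 138 KO-only regions, the highest share of merged regions at 4.74%.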

How the results depend on the processing

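Of 85 recomputed values, 40 stayed within the 95% interval of the value reported (for numbers of regions, within 1.5 times), among them all 12 for autosomes alone. In what follows the values are those of the KO-only regions, in the order H3K4me3, H3K27ac, H3K27me3, KDM6A of KO, KDM6A of WT, MLL4 of KO and MLL4 of WT where all 7 are given. With lists of equal size there were 3860 regions of 3600 bp median length, overlapped in 70.2%, 71.5%, 15%, 4.27%, 0.622%, 10.6% and 0.570% of cases, with 32.3% within 5 kb of WT H3K4me1. The WT-only class then held 4605 regions, 6.41% of them with H3K4me3. The upper 50% of the KO lists by reads gave 176 regions of 5000 bp, with 59.1%, 75%, 10.8%, 2.84%, 0, 6.25% and 0, and 31.2% near WT; fewer KO regions enter there by construction. H3K4me3 then overlapped 16.2% and H3K27ac 23.9% of the WT-only class. Joining regions within 1 kb gave a median of 3200 bp, 42.7% with H3K4me3, 37.5% with H3K27ac, 20.6% with H3K27me3, 3.82% with MLL4 of KO, 0 with MLL4 of WT and 24.4% near WT. Leaving out regions within 5 kb of WT H3K4me1 kept 1017, with 44.5% for H3K4me3, 39.1% for H3K27ac, 21.4% for H3K27me3, 3.24% for MLL4 of KO and 0 for MLL4 of WT. Asking the mark to cover at least 50% of the region gave 32.0% for H3K4me3, 23.8% for H3K27ac, 13.9% for H3K27me3, 0.597% for KDM6A of KO, 0.896% for MLL4 of KO and 0 for MLL4 of WT, and 1.12% for H3K4me3 on the WT-only class. Asking each KO list to cover 50% moved H3K4me3 alone, to 50.8%. Without chromosomes 1, 6, 15, 17 and 19, KDM6A of KO was at 0.805% and MLL4 of KO at 2.49%. H3K4me3 was above the WT-only share under every alternative that gave both. Beyond these constructions the cause was not tested. The values for factors of WT rest on 4 regions and 1 region and cannot carry an order between settings. Depth per library is unknown, so a region missing from a list is not shown to lack the mark. No paired analysis was possible because each group held 1 library and all labels carry the same replicate number.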
